A study of Homo sapiens with 18 samples.

Results

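The 30 genes described here make cholesterol and fatty acids, or control that synthesis. They were chosen by name as genes of the pathway driven by the sterol regulatory element-binding proteins (SREBPs). The rule holds no measured value, but earlier results of these data were known when the list was chosen. They are 30 of the 57865 genes summed from the deposited table. By role, 7 make isoprenoid units (ACAT2, HMGCS1, MVK, PMVK, MVD, IDI1 and FDPS), and 11 turn these into squalene and close and trim the sterol rings (FDFT1, SQLE, LSS, CYP51A1, TM7SF2, MSMO1, NSDHL, HSD17B7, EBP, SC5D and DHCR7). Another 5 regulate the pathway or carry sterol (INSIG1, SREBF1, SREBF2, SCAP and STARD4), and 7 make, lengthen or desaturate fatty acids (ACLY, ACACA, FASN, SCD, ELOVL6, FADS1 and FADS2).

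The RNA came from extracellular vesicles (EVs), which are membrane-bound particles that cells release, and from the HEK293T cells that shed them, a widely used cell line of human embryonic kidney. There were 6 groups of 3 libraries: EVs of ATG7-/- cells (clone F2), EVs of ATG12-/- cells (clone D9), EVs of wild-type cells, and the cells of each of these 3 genotypes. ATG7 and ATG12 belong to the machinery that attaches LC3 proteins to membrane lipid, and the study asks whether that machinery affects which RNA enters EVs. All 6 groups were kept without serum for 24 h, and no serum-fed group was analysed here. Each knockout line is 1 clone, so a difference between genotypes and a difference between clones cannot be told apart. The labels number the libraries of a group as biological replicates and say nothing more of their source, so p-values measure the spread between these libraries.

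Cells sense cholesterol in the membrane of the endoplasmic reticulum. When it is low, the escort protein SCAP carries SREBP precursors to the Golgi, where they are cut, and the released part enters the nucleus and switches on synthesis genes. When sterol is plentiful, INSIG proteins hold SCAP in the endoplasmic reticulum. SREBP-2, the product of SREBF2, mainly drives the sterol genes, and SREBP-1, the product of SREBF1, mainly the fatty acid genes.

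The deposited values are TPM, a length-scaled share of each library that adds to the same total in all of them and keeps no sequencing depth. In these bulk libraries fewer cells of a type and less RNA per cell cannot be told apart, and a higher share of one RNA cannot be told apart from a lower share of others. At least 1 TPM was reached by 25 to 30 members in an EV library and by 24 to 29 in a cell library. Of the markers of HEK293T cells, NEFL (0.733 to 45 TPM) and NEFM were above 0 in all 18 libraries, LIN28B reached at most 3.49 TPM and PAX2 at most 3.44 TPM. NEFM differed between the genotypes without overlap: it ranged from 2.15 to 20.6 TPM in ATG7-/- EVs, from 27.1 to 34.7 TPM in ATG12-/- EVs and from 52.9 to 63.5 TPM in wild-type EVs. In cells it ranged from 0.198 to 1.73 TPM in ATG7-/-, from 7.41 to 14.5 TPM in ATG12-/- and from 3.85 to 5.71 TPM in wild type, and the part of such clone differences in the results was not tested. Of the markers of other cells, ALB (liver), CD3E (T cells) and KRT5 (keratinocytes) were listed at 0 in every library. PTPRC, a leukocyte marker, had 0.489 to 2.6 TPM in the 9 cell libraries and 0 in 7 of the 9 EV libraries, with 5.79 TPM at most. PECAM1 (endothelium) reached at most 1.36 TPM and APOB (liver) at most 0.698 TPM. Of the fibroblast collagens, COL1A1 ranged from 0.509 to 19.6 TPM and COL1A2 reached at most 0.515 TPM. ATG7 had 11.2 to 15.6 TPM in ATG7-/- EVs and 13.3 to 19.4 TPM in wild-type EVs, and 8.06 to 12.9 TPM in ATG7-/- cells and 8.14 to 13.1 TPM in wild-type cells. ATG12 had 0, 0.858 and 0 TPM in ATG12-/- EVs and 0.844, 9.54 and 22.6 TPM in wild-type EVs, and 5.18 to 9.18 TPM in ATG12-/- cells and 7.61 to 13.5 TPM in wild-type cells. Neither passed the test in its own knockout, and the kind of edit is not given in the labels.

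The level of each member in each library is drawn first. The 30 genes together took 973 ± 69.2 TPM in ATG7-/- EVs, 1203 ± 139 TPM in ATG12-/- EVs and 1161 ± 231 TPM in wild-type EVs (SD, n = 3 each). They took 747 ± 121 TPM in ATG7-/- cells, 940 ± 188 TPM in ATG12-/- cells and 541 ± 11.3 TPM in wild-type cells. The summed levels of both knockout cell groups lay above the wild-type cells in every library. These sums take in the short transcripts described below. In EVs each knockout overlapped wild type, and ATG12-/- EVs lay above ATG7-/- EVs.

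**Figure D1:**
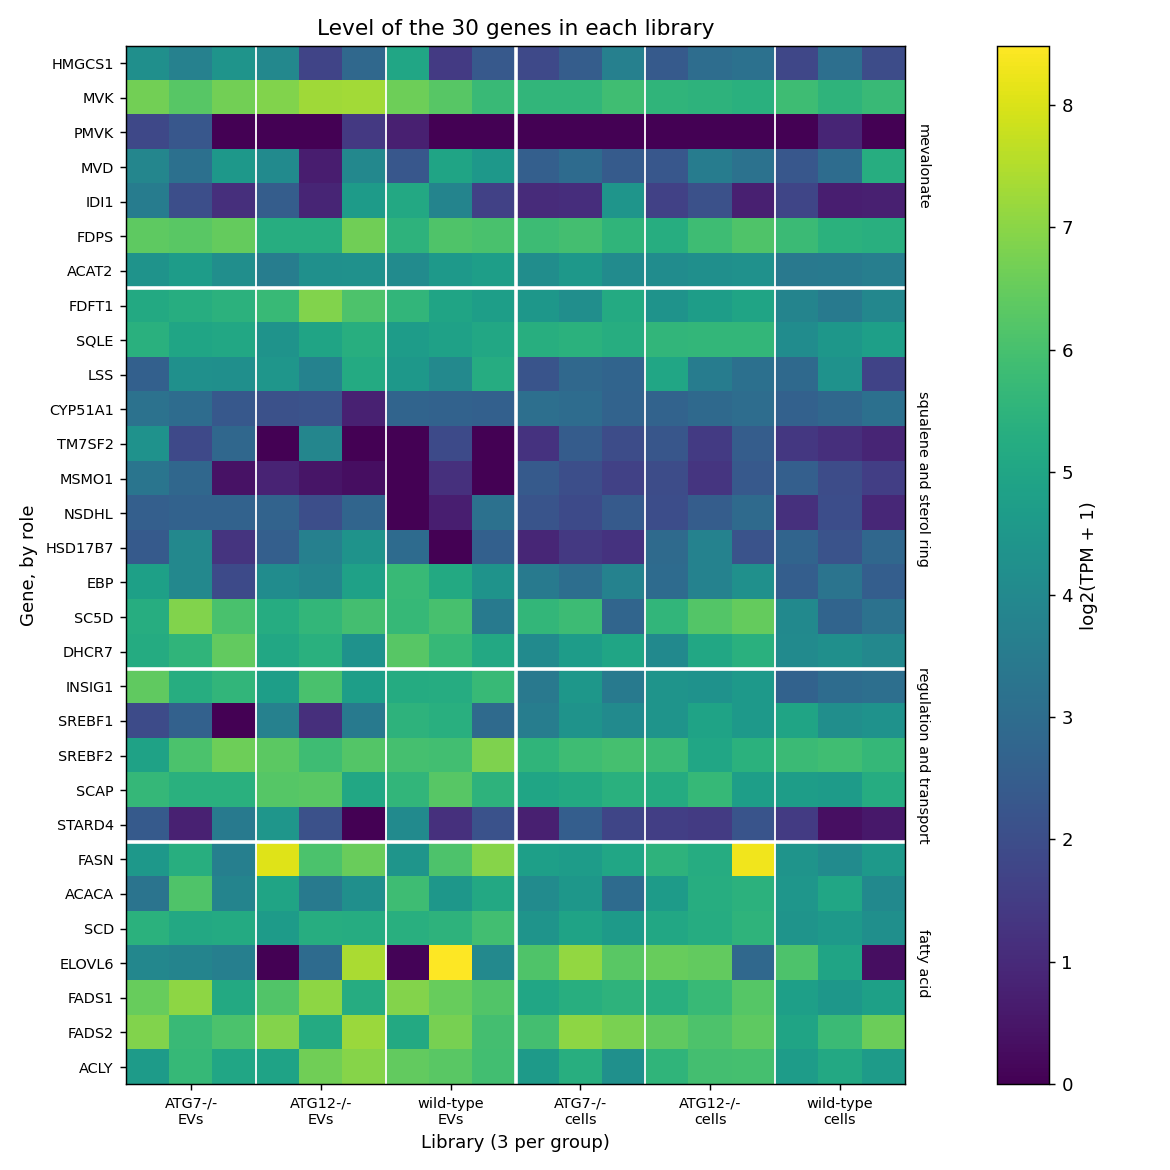
Level of the 30 genes, in rows by role, in each of the 18 libraries, in columns by group, as log2(TPM + 1) on the colour scale. MVK and FDPS are bright across all libraries, PMVK is dark in the cells, where 8 of 9 libraries list it at 0, and ELOVL6 and FASN change brightness between libraries of 1 group.

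The TPM of many members came from short or noncoding transcripts. In EVs 15 of the 30 members, and in cells 13, had a leading transcript that was not annotated as protein-coding, and the leading transcript was shorter than 1000 nt for 20 members in EVs and 18 in cells. Only 8 members in EVs and 10 in cells were led by a protein-coding transcript of at least 1000 nt. These counts were not made over all genes, so they are not shown to be particular to the members. SQLE-201, a coding transcript of 2961 nt, held 100% of the TPM of SQLE in EVs and 99.8% in cells, and SCD-201, of 5362 nt, is the single transcript of SCD in the table. ACAT2-201, of 3180 nt, held 77.9% of ACAT2 in EVs and 88.3% in cells.

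At the other end stood MVK, SC5D and ELOVL6. MVK-204, a processed transcript of 548 nt with no annotated coding sequence, held 90.8% of the TPM of MVK in EVs and 91.1% in cells. A processed transcript of 346 nt held 87.8% of SC5D in EVs and 90.4% in cells. ELOVL6-207, of 204 nt, held 84.7% of ELOVL6 in EVs and 95.1% in cells. For these 3 genes most of the TPM printed was assigned to a short transcript annotated as noncoding. TPM are scaled by length, so a share of TPM is not a share of reads. How reads were divided between overlapping transcripts was not tested. Short transcripts also set single libraries: FASN had 315 TPM in 1 ATG12-/- cell library, where FASN-212, of 141 nt, was listed at 279 TPM, and that transcript was at 0 in the other 17 libraries.

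**Figure D2:**
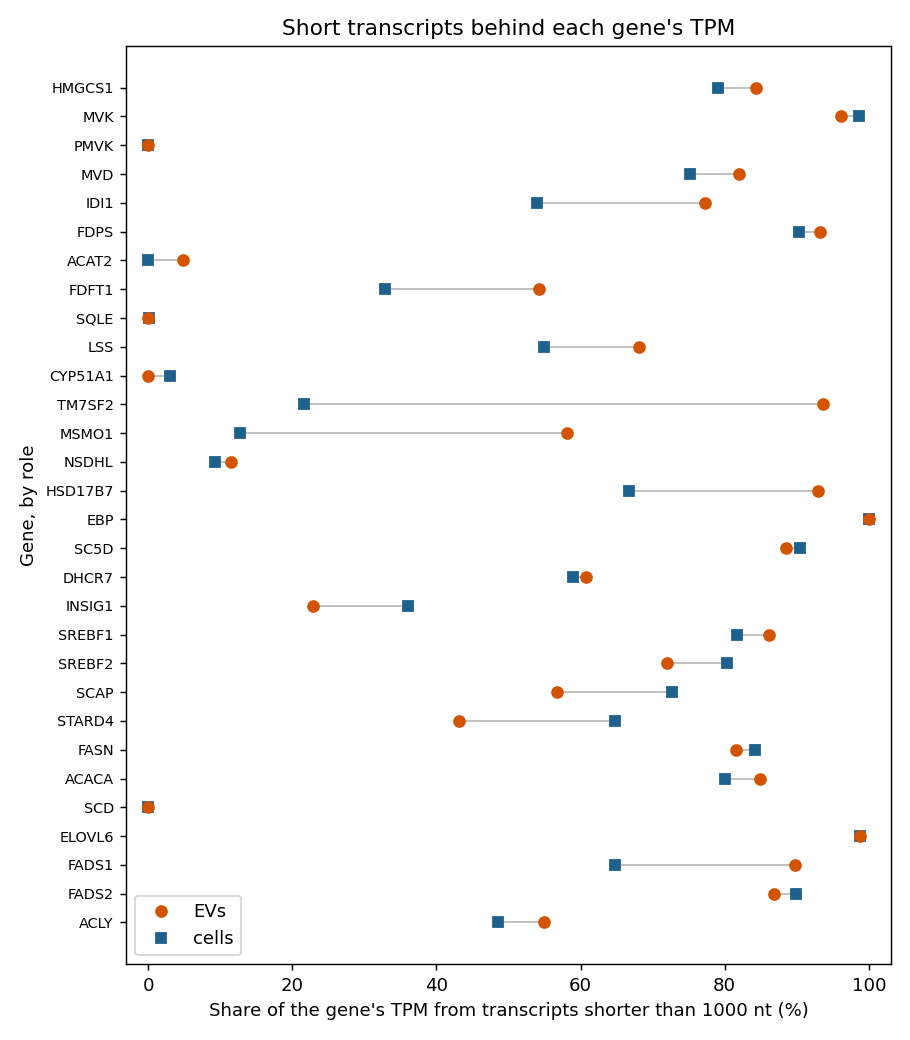
Share of each gene's TPM, in percent, that came from transcripts shorter than 1000 nt, averaged over the 9 EV libraries (circles) and over the 9 cell libraries (squares). SQLE, SCD, PMVK and CYP51A1 lie near 0, and MVK, ELOVL6, EBP and FDPS lie near the right edge in both materials.

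The strand setting used to make the values is not given in the sources used here, and 14 of the 30 members share exonic bases with a feature on the opposite strand. For 10 of them such a feature is noncoding, and for ACLY, FDPS, HMGCS1, IDI1 and STARD4 its mean level was above that of the member in both EVs and cells. The leading transcripts of ACLY, HMGCS1 and IDI1 have 0 bases opposite exons of other genes. Those of FDPS have 27.5% (EVs) and 28.1% (cells) of their bases there, and those of STARD4 10.9% and 14.8%. AC125257.2, opposite 156 exonic bases of ACLY, had 8680 ± 3185 TPM in EVs and 20678 ± 7106 TPM in cells (SD, n = 9 each), while ACLY, which makes cytosolic acetyl-CoA from citrate, averaged 64.6 TPM in EVs and 36.9 TPM in cells. RUSC1-AS1, opposite FDPS, had 294 ± 36.8 TPM in EVs and 266 ± 39.9 TPM in cells, and FDPS averaged 67.1 TPM in EVs and 51.3 TPM in cells. AC114947.2, opposite HMGCS1, had 161 ± 52.1 TPM in EVs and 219 ± 73.4 TPM in cells, and HMGCS1, the cytosolic HMG-CoA synthase, averaged 12.3 TPM in EVs and 5.73 TPM in cells. If the strand was set the wrong way round, the member values would measure the opposite strand or stray reads. FADS1 and FADS2 lie on opposite strands and share 490 exonic bases, and CYP51A1 shares 79.4% of its exonic bases with AC000120.2 on its own strand, so reads of these genes may have been divided.

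In knockout cells most members had higher levels than in wild-type cells, yet no single member passed the test. The summed level of the squalene and sterol ring genes was 157 ± 13.2 TPM in ATG7-/- cells, 225 ± 36 TPM in ATG12-/- cells and 92.4 ± 5.78 TPM in wild-type cells (SD, n = 3 each). Of these sums SC5D alone averaged 36.1 TPM in ATG7-/- cells, 69.2 TPM in ATG12-/- cells and 9.69 TPM in wild-type cells. A noncoding transcript of 346 nt held 90.4% of the TPM of SC5D in cells. In ATG7-/- cells 23 of the 29 members tested had a fold change above 0, as did 45.9% of all genes, with a median log2 fold change of 0.54 against -0.07 over all 22471 genes tested. In ATG12-/- cells 25 of 29 were above 0, against 45.8% of all genes, with a median of 0.78 against -0.07 over all genes. PMVK, phosphomevalonate kinase, was listed at 0 in 8 of 9 cell libraries and was not tested there. The wild-type cell libraries serve in both knockout comparisons, which are therefore not independent of each other.

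By the limma test across all genes, 0 members were called in ATG7-/- cells, where 0.2% of all genes were called, and 0 in ATG12-/- cells, where 0.134% were. At an unadjusted p under 0.05, 5 members were higher and 1 lower in ATG7-/- cells, against 7.09% of all genes higher and 7.33% lower. In ATG12-/- cells 11 members were higher and 0 lower, against 7.59% and 7.37% of all genes. On the scaled values every knockout library lay above every wild-type library for 7 members in ATG7-/- cells, where 9.35% of all genes did so, and below for 1 member, against 10.6%. In ATG12-/- cells this held for 11 members above, against 11.3% of all genes, and for 0 below, against 12.6%.

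SQLE, squalene epoxidase and an early oxygen-dependent step towards sterols, had 38.4, 41.5 and 38.2 TPM in ATG7-/- cells, 46.4, 48 and 47.7 TPM in ATG12-/- cells, and 16.3, 21.6 and 26.4 TPM in wild-type cells. All 6 knockout libraries were above all 3 wild-type libraries, and the knockout libraries agreed closely within their group. The log2 fold change was 0.94 (SE 0.21, adjusted p = 0.127) in ATG7-/- cells and 1.16 (SE 0.21, adjusted p = 0.0996) in ATG12-/- cells. FDFT1, squalene synthase, had 21.6, 17.4 and 35.6 TPM in ATG7-/- cells, 19.4, 25.1 and 30 TPM in ATG12-/- cells, and 13.2, 9.89 and 14.2 TPM in wild-type cells. Neither knockout overlapped wild type, and the knockout cells overlapped each other. Its log2 fold change was 0.97 (SE 0.30) in each knockout, with an adjusted p of 0.209 in ATG7-/- cells and 0.212 in ATG12-/- cells.

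Among the later ring enzymes, HSD17B7, a sterol ketoreductase, had 0.889, 1.67 and 1.37 TPM in ATG7-/- cells, 6.65, 12.7 and 3.52 TPM in ATG12-/- cells, and 5.58, 3.47 and 6.11 TPM in wild-type cells. It was the 1 member with every ATG7-/- cell library below wild type (log2 fold change -1.32, SE 0.41, adjusted p = 0.218), while ATG12-/- cells overlapped wild type. None of its TPM came from coding transcripts. SC5D, sterol C5-desaturase, had 47.8, 54.6 and 5.86 TPM in ATG7-/- cells, 46.4, 72.3 and 89 TPM in ATG12-/- cells, and 15.2, 5.71 and 8.21 TPM in wild-type cells. The low ATG7-/- library is the one in which that 346 nt transcript was listed at 0. LSS, CYP51A1, MSMO1, NSDHL, EBP and DHCR7 overlapped between each knockout and wild-type cells, with log2 fold changes of -0.31 (LSS) to 0.83 (NSDHL) in ATG7-/- cells and -0.14 (MSMO1) to 1.11 (NSDHL) in ATG12-/- cells. TM7SF2, a sterol reductase, overlapped in ATG7-/- cells (0.81) and lay above wild type in ATG12-/- cells (0.95), at levels of at most 4.63 TPM.

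The summed level of the isoprenoid genes was 142 ± 15 TPM in ATG7-/- cells, 132 ± 18.2 TPM in ATG12-/- cells and 129 ± 16.5 TPM in wild-type cells, and the groups overlapped. Of the 6 tested, 5 were above 0 in ATG7-/- cells (median 0.38) and 4 in ATG12-/- cells (median 0.35). ACAT2, the cytosolic thiolase that joins the first acetyl-CoA units, had 16.9, 22.1 and 16 TPM in ATG7-/- cells, 16.4, 17.5 and 18.4 TPM in ATG12-/- cells, and 9.86, 10.3 and 11.4 TPM in wild-type cells. No knockout library reached down to the wild-type range. For ACAT2 the log2 fold change was 0.80 (SE 0.21, adjusted p = 0.157) in ATG7-/- cells and 0.71 (SE 0.21, adjusted p = 0.204) in ATG12-/- cells. ACAT2 shares exonic bases on the opposite strand with TCP1, SOD2 and SOD2-OT1. Of the 3180 bases of ACAT2-201, 2212 (69.6%) lie opposite exons of other genes. TCP1 averaged 33.2 TPM in cells, where ACAT2 averaged 15.4 TPM, and the strand setting is not given. MVK, mevalonate kinase, had 46.8, 46.9 and 58.5 TPM in ATG7-/- cells, 46.2, 44 and 40.3 TPM in ATG12-/- cells, and 56, 44.6 and 52.7 TPM in wild-type cells, all overlapping. MVD, IDI1, FDPS and HMGCS1 also overlapped, and IDI1, the isomerase of isopentenyl diphosphate, stood at 20.3 TPM in 1 ATG7-/- library and at 0.641 to 3.29 TPM in the other 8 cell libraries.

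Of the regulators, INSIG1, the endoplasmic reticulum anchor of SCAP and itself an SREBP target, had 9.69, 21.4 and 10 TPM in ATG7-/- cells, 20, 19.2 and 22.8 TPM in ATG12-/- cells, and 5.4, 7.06 and 7.47 TPM in wild-type cells. Neither knockout overlapped wild type, and the ATG12-/- libraries lay close together. INSIG1 had a log2 fold change of 0.93 (SE 0.33, adjusted p = 0.268) in ATG7-/- cells and 1.54 (SE 0.33, adjusted p = 0.129) in ATG12-/- cells. Part of this came from INSIG1-204, a coding transcript of 596 nt that was at 0 in all 3 wild-type cell libraries. With transcripts under 1000 nt left out, the log2 fold change was -0.03 in ATG7-/- cells and 0.90 in ATG12-/- cells. On the full sums SREBF1, SREBF2 and SCAP overlapped between knockout and wild-type cells. Their log2 fold changes were -0.42, 0.09 and 0.36 in ATG7-/- cells and 0.18, -0.32 and 0.37 in ATG12-/- cells. A retained-intron transcript of 432 nt held 72.9% of the TPM of SREBF2 in cells. Without transcripts under 1000 nt SREBF2 had 10.1, 12.7 and 11.1 TPM in ATG7-/- cells and 10.3, 10 and 12 TPM in ATG12-/- cells. Wild-type cells had 6.8, 8.19 and 8.11 TPM, below both knockouts, though SREBF2 was not called. In these TPM SREBF1 overlapped in both comparisons, and SCAP lay above wild type in ATG12-/- cells only. STARD4, a sterol carrier, was at or below 4.79 TPM in every cell library.

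Among the fatty acid genes the summed level was 326 ± 87.2 TPM in ATG7-/- cells, 456 ± 150 TPM in ATG12-/- cells and 207 ± 4.58 TPM in wild-type cells. Single short transcripts weighed on these sums. FASN-212, of 141 nt, was at 279 TPM in 1 ATG12-/- library. ELOVL6, mostly a noncoding transcript of 204 nt, averaged 95.1 TPM in ATG7-/- cells, 61 TPM in ATG12-/- cells and 32.8 TPM in wild-type cells. SCD, which places the first double bond in stearate, had 20, 29.1 and 23.6 TPM in ATG7-/- cells, 33, 37.4 and 44.6 TPM in ATG12-/- cells, and 19.8, 22.4 and 17.7 TPM in wild-type cells. The ATG12-/- libraries were all above wild type, and the ATG7-/- libraries overlapped it. SCD had a log2 fold change of 0.33 (SE 0.23, adjusted p = 0.547) in ATG7-/- cells and 0.93 (SE 0.23, adjusted p = 0.155) in ATG12-/- cells.

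FADS1, a desaturase of polyunsaturated fatty acids, had 31.1, 38.9 and 43.5 TPM in ATG7-/- cells, 39.4, 51 and 74.6 TPM in ATG12-/- cells, and 26.5, 21.7 and 27 TPM in wild-type cells. Neither knockout overlapped wild type, and the log2 fold change in ATG12-/- cells was 1.09 (SE 0.26, adjusted p = 0.149). It rested on short transcripts: without those under 1000 nt the value was -0.14. FASN, fatty acid synthase, had 26.4, 24.7 and 31.7 TPM in ATG7-/- cells, 43.9, 37.1 and 315 TPM in ATG12-/- cells, and 20.1, 16 and 23.3 TPM in wild-type cells, which again lay below both knockouts. ACLY had 23.7, 38.4 and 18 TPM in ATG7-/- cells, 45.3, 61 and 62.7 TPM in ATG12-/- cells, and 24.7, 33.6 and 24.2 TPM in wild-type cells, so that the ATG12-/- cells lay above the others. ELOVL6, which lengthens palmitate, had 69.9, 137 and 78.3 TPM in ATG7-/- cells, 90.9, 85.6 and 6.3 TPM in ATG12-/- cells, and 68, 30.1 and 0.237 TPM in wild-type cells. The ATG7-/- libraries lay above wild type, but the wild-type libraries were far apart (2.78, SE 1.51, adjusted p = 0.432). FADS2, a desaturase, and ACACA, acetyl-CoA carboxylase, overlapped in both comparisons.

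**Figure D3:**
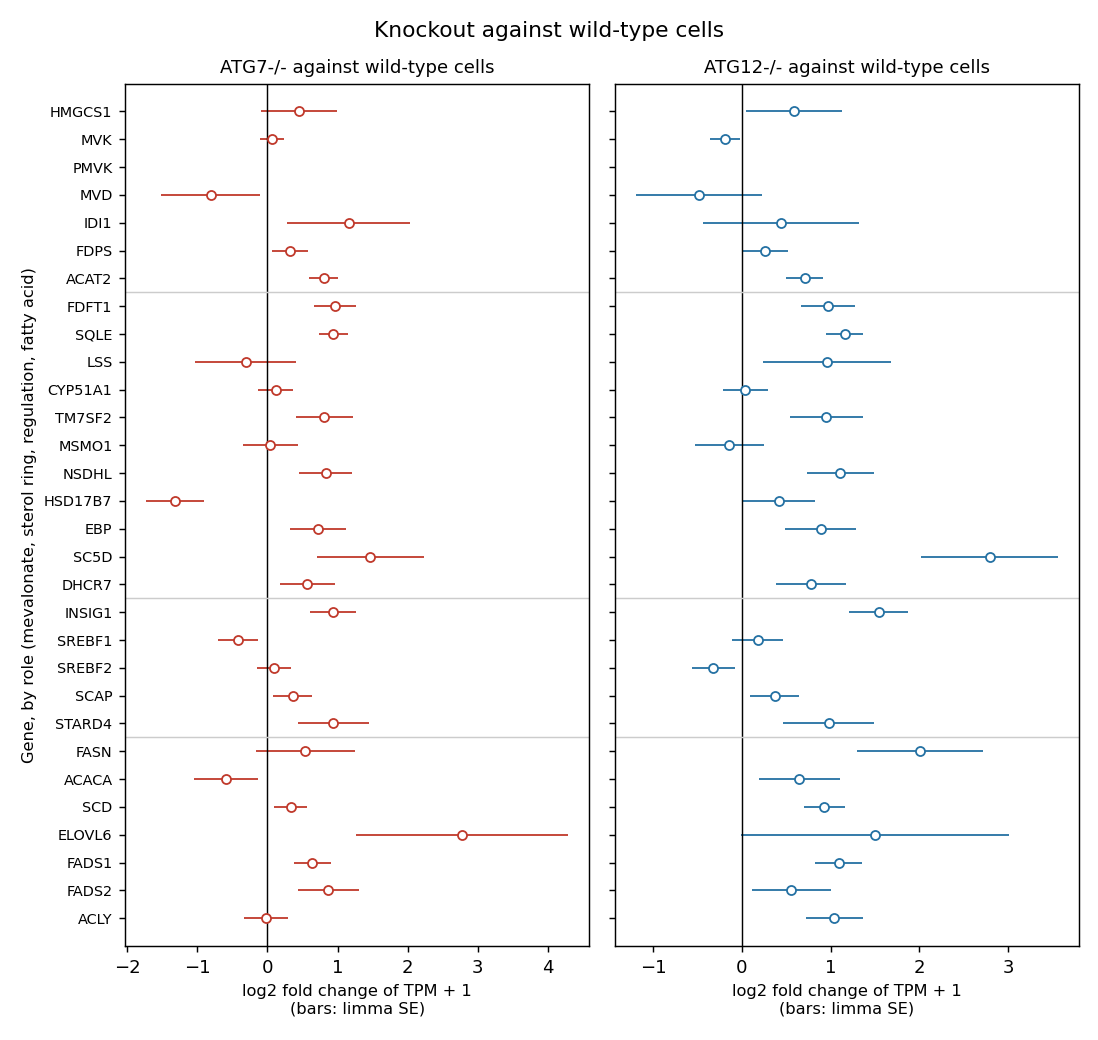
Log2 fold change of TPM + 1 for the 29 genes tested in cells, ATG7-/- against wild type (left) and ATG12-/- against wild type (right), with bars of 1 limma standard error and genes grouped by role. Filled points would mark an adjusted p under 0.05, and there are none, while 23 points on the left and 25 on the right lie above 0.

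The fits were repeated on gene sums without transcripts under 1000 nt, a setting chosen after the data were seen. In ATG7-/- cells 4 of 26 members then rose and 0 fell, against 2.25% of all genes called higher and 1.19% lower. In ATG12-/- cells 8 of 26 rose and 0 fell, against 2.83% higher and 1.44% lower. Every knockout library lay above wild type for 9 members in ATG7-/- cells, against 12.2% of all genes, and for 15 in ATG12-/- cells, against 15.9%. SQLE rose in both (log2 fold change 0.95, adjusted p = 0.0179 in ATG7-/- and 1.15, adjusted p = 0.00754 in ATG12-/- cells), as did FDFT1 (1.08, adjusted p = 0.0447 in ATG7-/- and 1.11, adjusted p = 0.0369 in ATG12-/- cells). NSDHL, a sterol dehydrogenase of the demethylating complex, and ACAT2 were the other members that rose in both. NSDHL (1.12, adjusted p = 0.0323 in ATG7-/- and 1.31, adjusted p = 0.0165 in ATG12-/- cells) had 3.64, 2.71 and 4.32 TPM on this sum in ATG7-/- cells, 2.98, 4.7 and 5.62 TPM in ATG12-/- cells, and 1.27, 1.27 and 0.928 TPM in wild-type cells. The wild-type libraries were all at the low end, near the filter of 1 TPM.

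In ATG12-/- cells DHCR7, FASN, SCD and ACLY rose as well on these sums. DHCR7, the reductase of the last sterol step, had 15.3, 15.5 and 30.5 TPM in ATG12-/- cells and 3.06, 5.18 and 0 TPM in wild-type cells (log2 fold change 2.80, adjusted p = 0.0192), most of it in ATG12-/- cells a coding transcript of 1005 nt, just above the limit of 1000 nt. ACLY had 25.5, 28.6 and 28.6 TPM in ATG12-/- cells and 11.8, 14.1 and 12.7 TPM in wild-type cells (1.07, adjusted p = 0.0113). FASN had 11.7, 10.5 and 16.7 TPM in ATG12-/- cells and 4.84, 6.07 and 4.43 TPM in wild-type cells (1.20, adjusted p = 0.027), with no library standing apart as on the full sum. SCD, whose single transcript the limit does not touch, had the same log2 fold change of 0.93, with an adjusted p of 0.0203 over the 12690 genes tested here. These calls depended on the limit and on single libraries. With a limit of 500 nt, 0 members were called in ATG7-/- cells, against 0.825% of all genes, and 2 in ATG12-/- cells, against 0.926%. Leaving out ATG7-/- replicates 1, 2 and 3 in turn gave 3, 0 and 1 calls in ATG7-/- cells, against 3.77%, 0.356% and 0.81% of all genes. Leaving out wild-type replicates 1, 2 and 3 gave 1, 2 and 1, against 0.689%, 2.72% and 0.688%. In ATG12-/- cells there were 5, 1 and 2 calls without ATG12-/- replicates 1, 2 and 3, against 1.6%, 0.685% and 0.861% of all genes. Without wild-type replicates 1, 2 and 3 there were 4, 6 and 3, against 1.33%, 3.26% and 1.21%. With coding transcripts only, 0 were called in ATG7-/- cells, against 0.0521% of all genes, and 0 in ATG12-/- cells, against 0.0313%. Of the members, 9 of 25 members in ATG7-/- cells and 14 of 25 in ATG12-/- cells lay wholly above wild type, against 10.4% and 12.9% of all genes.

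**Figure D4:**
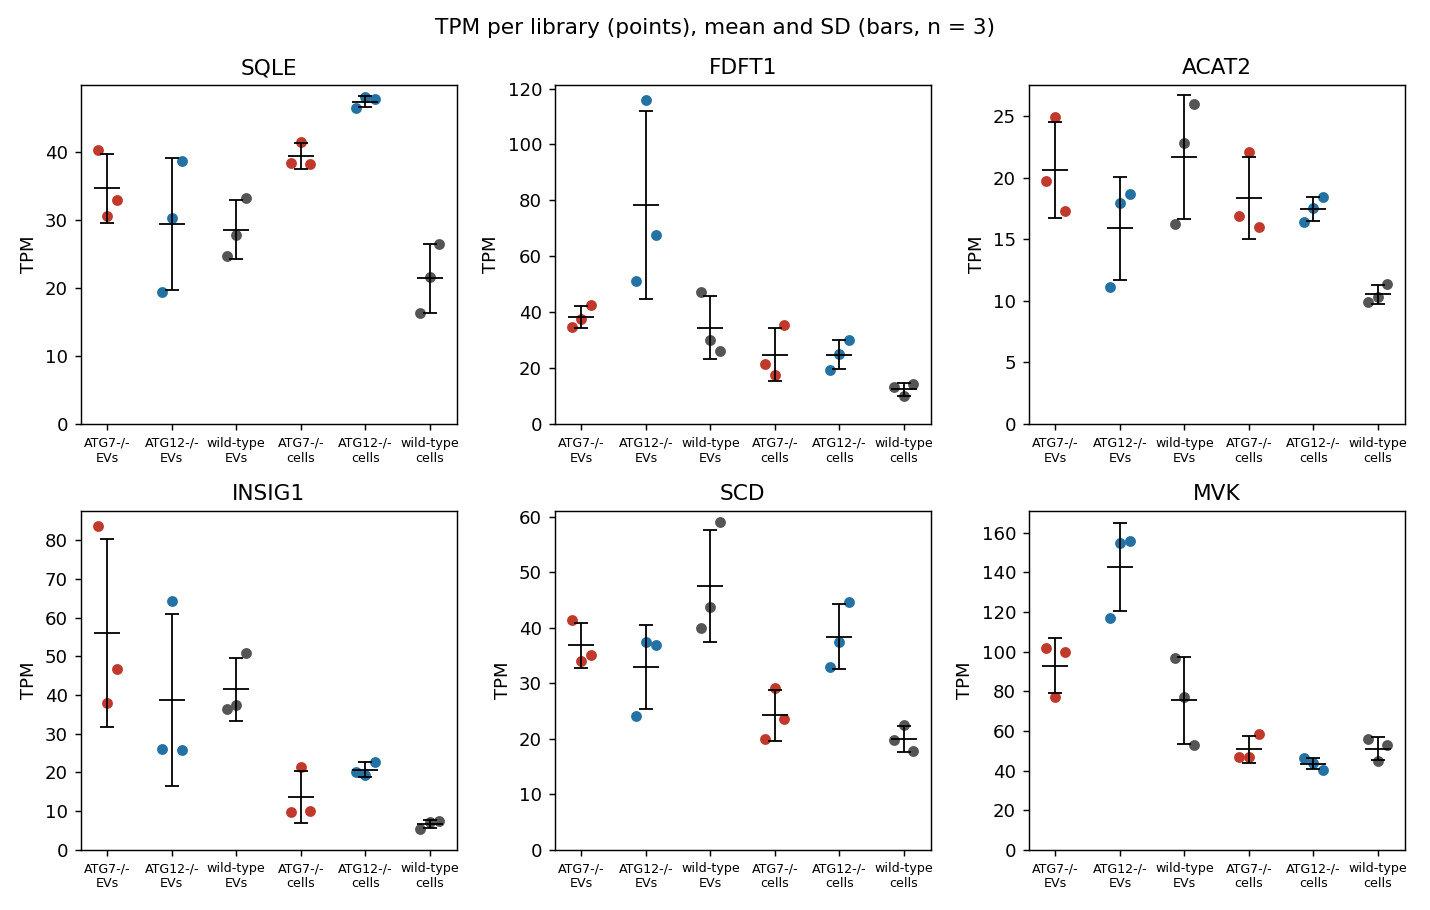
TPM of SQLE, FDFT1, ACAT2, INSIG1, SCD and MVK in each library (points), with the mean and SD of each group (bars, n = 3), as deposited and over all transcripts. SQLE and ACAT2 lie higher in both knockout cell groups than in wild-type cells, INSIG1 lies higher in EVs than in cells, and MVK is highest in ATG12-/- EVs.

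The promoters of the members were read for the motifs through which SREBPs are known to act. RefSeq sequences (GRCh38.p14) of the 250 bases before the annotated start were found for 26 of the 30 members, the others being FDFT1, SQLE, ACAT2 and FASN. These RefSeq starts can differ from the gene bounds used for the TPM. For some members, among them MVK, DHCR7 and FADS2, the 250 bases lie inside those bounds, and for IDI1 they lie apart, upstream. The sterol regulatory element was searched as TCACNCCAC and its core as CACNCCAC, the NF-Y box as CCAAT, the GC box as GGGCGG and the E-box as CACGTG, each on both strands, and the element contains its core. The full element occurred in 1 of the 26 members (SREBF2) and in 0.875% of 27305 promoters, and the core in 3 members (SREBF2, INSIG1 and SCD) and in 4.72% of all promoters. NF-Y boxes were found in 17 members (65.4%) and in 33% of all promoters, GC boxes in 24 members (92.3%) and in 42.3%, and E-boxes in 3 members and in 6.49%. The 27305 promoters were not limited to genes of the members' kind or level. These shares are therefore not shown to be particular to the pathway. The 3 promoters with a core match are shown 5′ to 3′ on the plus strand, which is the gene's strand for all 3, with the element or its core and the NF-Y boxes of either strand in capitals. The core begins at -132 from the start in SREBF2 (chr22:41832855-41833104), at -208 in INSIG1 (chr7:155297628-155297877) and at -114 in SCD (chr10:100346983-100347232). A match is only a match of letters, and no binding was measured.
SREBF2: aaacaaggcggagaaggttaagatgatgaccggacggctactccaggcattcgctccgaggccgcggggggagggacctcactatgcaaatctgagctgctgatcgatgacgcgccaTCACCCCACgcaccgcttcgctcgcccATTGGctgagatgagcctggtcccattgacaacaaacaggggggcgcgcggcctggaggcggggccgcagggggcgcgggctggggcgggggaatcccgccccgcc
INSIG1: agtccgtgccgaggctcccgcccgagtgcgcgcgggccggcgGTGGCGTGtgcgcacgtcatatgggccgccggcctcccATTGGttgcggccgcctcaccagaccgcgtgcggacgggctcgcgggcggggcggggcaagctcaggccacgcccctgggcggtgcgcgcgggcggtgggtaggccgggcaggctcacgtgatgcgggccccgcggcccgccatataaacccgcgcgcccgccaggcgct
SCD: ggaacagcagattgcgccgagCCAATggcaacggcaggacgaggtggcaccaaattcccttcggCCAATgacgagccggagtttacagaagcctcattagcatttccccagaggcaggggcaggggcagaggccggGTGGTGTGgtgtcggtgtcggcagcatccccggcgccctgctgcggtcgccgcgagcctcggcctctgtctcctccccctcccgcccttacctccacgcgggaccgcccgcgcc

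On the full sums the members, in the EVs of knockout cells, were spread around no difference from wild-type EVs. In ATG7-/- EVs 17 of the 30 members had a fold change above 0, as did 49.8% of all genes, with a median log2 fold change of 0.08 (0.00 over all 17076 genes tested). By the test 0 were called, where 0.141% of all genes were. In ATG12-/- EVs 13 of 30 were above 0, against 46.2% of all genes, with a median of -0.04 (-0.08 over all genes), and 0 were called, against 0.105% of all genes. At an unadjusted p under 0.05, 1 member was higher and 1 lower in ATG7-/- EVs, against 4.33% and 3.07% of all genes, and 2 were higher and 0 lower in ATG12-/- EVs, against 3.62% and 4.32%. The groups did not overlap, on the scaled values, for 3 members higher and 2 lower in ATG7-/- EVs, against 7.26% and 6.48% of all genes, and for 2 higher and 2 lower in ATG12-/- EVs, against 5% and 6.26%. On sums without transcripts under 1000 nt, 12 of 26 members were above 0 in ATG7-/- EVs (median -0.09, -0.02 over all genes). In ATG12-/- EVs 11 of 26 were above 0 on those sums (median -0.24, -0.07 over all genes). SQLE, which stood apart in the cells, had 40.3, 30.6 and 32.9 TPM in ATG7-/- EVs, 19.4, 30.2 and 38.7 TPM in ATG12-/- EVs, and 24.7, 27.7 and 33.2 TPM in wild-type EVs. As deposited the 3 EV groups overlapped, and on the scaled values the ATG7-/- EVs lay just above wild type (0.37, SE 0.41, adjusted p = 0.903). ACLY had 24.3, 50.7 and 31.3 TPM in ATG7-/- EVs and 85.1, 79.2 and 59.1 TPM in wild-type EVs. Without transcripts under 1000 nt ACLY had 14.7, 16.6 and 16.2 TPM in ATG7-/- EVs and 42.7, 44.9 and 36.8 TPM in wild-type EVs. On these sums SREBF2 had 15.7, 15.1 and 19.8 TPM in ATG7-/- EVs and 17.8, 20.1 and 15 TPM in ATG12-/- EVs. In wild-type EVs SREBF2 had 24.5, 24.3 and 26.1 TPM.

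SREBF1 had 2.84, 5.2 and 0 TPM in ATG7-/- EVs, 12.1, 1.19 and 10 TPM in ATG12-/- EVs, and 43.3, 39.5 and 6.64 TPM in wild-type EVs. Every ATG7-/- library lay below wild type, and the ATG12-/- libraries overlapped the lowest wild-type one. SREBF1 had a log2 fold change of -2.97 (SE 1.05, adjusted p = 0.553) in ATG7-/- EVs and -1.74 (SE 1.05, adjusted p = 0.701) in ATG12-/- EVs. Coding transcripts gave 6.67% of the TPM of SREBF1 in EVs, and SREBF1-219, a retained-intron transcript, alone was listed at 30.3 TPM in 1 wild-type library and at 0 in the other 8 EV libraries. TM7SF2 had 19, 2.62 and 6.06 TPM in ATG7-/- EVs and 0, 2.78 and 0 TPM in wild-type EVs (2.38, SE 1.16, adjusted p = 0.686). MSMO1, sterol methyl oxidase, had 8.78, 6.1 and 0.321 TPM in ATG7-/- EVs and 0, 1.27 and 0 TPM in wild-type EVs (1.79, SE 0.77, adjusted p = 0.666). EBP, a sterol isomerase, had 27.1, 14.7 and 2.74 TPM in ATG7-/- EVs and 51, 34.4 and 19.5 TPM in wild-type EVs (-1.41, SE 0.75, adjusted p = 0.717). Each of these 3 rested on libraries that differed widely within their group.

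In ATG12-/- EVs MVK stood out, with 117, 155 and 156 TPM, beside 102, 76.9 and 100 TPM in ATG7-/- EVs and 96.7, 76.9 and 52.9 TPM in wild-type EVs. All ATG12-/- libraries were above all others (log2 fold change against wild type 1.01, SE 0.33, adjusted p = 0.496). The noncoding MVK-204 accounted for 107, 152 and 152 TPM of these, and 225 of its 548 bases lie opposite exons of another gene. FDFT1 had 51.1, 116 and 67.8 TPM in ATG12-/- EVs, 34.7, 37.7 and 42.5 TPM in ATG7-/- EVs, and 47.3, 29.9 and 26.2 TPM in wild-type EVs (ATG12-/- against wild type 1.20, SE 0.43, adjusted p = 0.556). The ATG12-/- libraries were again above all others, 1 of them only just above the highest wild-type one. HSD17B7 had 4.94, 11.9 and 19.5 TPM in ATG12-/- EVs and 6.87, 0 and 5.07 TPM in wild-type EVs, which overlapped (1.71, SE 1.00, adjusted p = 0.694). By role, 6 of 7 isoprenoid genes (median 0.43), 9 of 11 squalene and sterol ring genes (median 0.37), 1 of 5 regulators (median -0.22) and 1 of 7 fatty acid genes (median -0.32) were above 0 in ATG7-/- EVs, against the 49.8% of all genes given above. In ATG12-/- EVs these were 2 of 7 (median -0.08), 7 of 11 (median 0.16), 1 of 5 (median -0.14) and 3 of 7 (median -0.30), in the same order, against 46.2%. ELOVL6, with 0.055, 356 and 14.9 TPM in wild-type EVs, shows how far single libraries could differ.

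EVs and the cells that released them were then compared within each genotype. Against wild-type cells, wild-type EVs had a median log2 fold change of 0.22 over the 30 members, while the median over all 24647 genes tested was -0.75. Above 0 were 18 members, against 29% of all genes. Higher in EVs by the test were 2 members, where 4.03% of all genes were, and lower was 1, where 20.7% were. Every EV library lay above every cell library for 8 members, against 7.85% of all genes, and below for 2, against 30.2%. The scaling moves these values. On TPM as deposited the median over all genes was -0.48 and that of the members 0.66. There 1575 genes were called higher and 3348 lower, in place of 994 higher and 5092 lower. The members are coding genes, and the genes tested include noncoding ones. On TPM recomputed over nuclear protein-coding genes the median over all 13985 genes was -0.56. With coding transcripts only it was -0.27 over 11605 genes and 0.20 over 27 members.

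INSIG1 had 36.3, 37.3 and 50.9 TPM in wild-type EVs and 5.4, 7.06 and 7.47 TPM in wild-type cells. For ATG7-/- the levels were 83.7, 37.8 and 46.8 TPM in EVs, against 9.69, 21.4 and 10 TPM in cells. For ATG12-/- they were 26, 64.4 and 25.9 TPM in EVs, against 20, 19.2 and 22.8 TPM in cells. EV libraries lay above cell libraries of the same genotype in all 3 genotypes. INSIG1 had a log2 fold change of 2.00 (SE 0.42, adjusted p = 0.0035) in wild type and 1.75 (SE 0.42, adjusted p = 0.0148) in ATG7-/-, where the call was lost without ATG7-/- EV replicate 1 (adjusted p = 0.0605), ATG7-/- cell replicate 1 (adjusted p = 0.0632) or ATG7-/- cell replicate 3 (adjusted p = 0.0565). On sums without transcripts under 1000 nt, INSIG1 was higher in EVs of every genotype, among them ATG12-/- (1.05, adjusted p = 0.0244).

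EBP had 51, 34.4 and 19.5 TPM in wild-type EVs and 4.84, 8.64 and 4.84 TPM in wild-type cells (log2 fold change 1.82, SE 0.61, adjusted p = 0.0421), and all EV libraries were higher. In wild-type EVs the noncoding EBP-201 was listed at 43.1, 34.4 and 0 TPM and the noncoding EBP-206 at 0, 0 and 19.5 TPM. Coding transcripts gave 11.9% of the TPM of EBP in EVs and 50.6% in cells. All of its TPM came from transcripts under 1000 nt. MSMO1 had 0, 1.27 and 0 TPM in wild-type EVs and 4.97, 2.96 and 1.95 TPM in wild-type cells (-1.88, SE 0.62, adjusted p = 0.0384), and all EV libraries were lower. Both calls were weak. EBP was lost without wild-type EV replicate 1 or 2 or wild-type cell replicate 1 or 3 (adjusted p = 0.0832 to 0.124), and MSMO1 without wild-type EV replicate 1 or 3 or wild-type cell replicate 1 or 2 (adjusted p = 0.0781 to 0.125). FADS1, with 119, 90.6 and 72.2 TPM in wild-type EVs and 26.5, 21.7 and 27 TPM in wild-type cells, missed the threshold (1.35, SE 0.49, adjusted p = 0.0546). Without transcripts under 1000 nt its value was -0.90. The difference lay in FADS1-210, a noncoding transcript of 693 nt at 93.4, 47.4 and 24.4 TPM in wild-type EVs and at 0 in all 3 wild-type cell libraries. SCD, with 39.9, 43.8 and 59 TPM in wild-type EVs and 19.8, 22.4 and 17.7 TPM in wild-type cells, did not overlap either (0.71, SE 0.28, adjusted p = 0.0757).

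In ATG7-/- the members' median was 0.36 (-0.48 over all genes), and with coding transcripts only -0.01 (-0.18 over all genes). On the full sums 19 were above 0, against 32% of all genes. By the test 1 member was higher, against 2.71% of all genes, and 1 lower, against 8.69%. There was no overlap for 5 members higher, against 8.58%, and 3 lower, against 23.8%. The lower one was SREBF1, with 2.84, 5.2 and 0 TPM in ATG7-/- EVs and 11.1, 19.3 and 15.8 TPM in ATG7-/- cells (log2 fold change -2.63, SE 0.77, adjusted p = 0.0388). All EV libraries were below the cells, and the call was lost without ATG7-/- EV replicate 1 or 3 or any 1 of the ATG7-/- cell libraries (adjusted p = 0.0673 to 0.152). MVK, at 102, 76.9 and 100 TPM in ATG7-/- EVs and 46.8, 46.9 and 58.5 TPM in ATG7-/- cells, did not overlap (0.64, SE 0.26, adjusted p = 0.128). DHCR7, at 36.1, 46 and 85.9 TPM in ATG7-/- EVs and 15.6, 25 and 30.8 TPM in ATG7-/- cells, did not overlap as deposited and did overlap on the scaled values (0.94, SE 0.46, adjusted p = 0.198).

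In ATG12-/- the members' median was -0.03 (-0.54 over all genes), and with coding transcripts only -0.18 (-0.26 over all genes). On the full sums 14 were above 0, against 29.7% of all genes. By the test 2 members were higher, against 2.27% of all genes, and 0 lower, against 8.9%. There was no overlap for 3 members higher, against 6.71%, and 5 lower, against 24.8%. MVK had 117, 155 and 156 TPM in ATG12-/- EVs and 46.2, 44 and 40.3 TPM in ATG12-/- cells (log2 fold change 1.54, SE 0.26, adjusted p = 0.00211), a call kept whichever of these 6 libraries was left out. With coding transcripts only, and so without MVK-204, the value was -1.54. FDFT1 had 51.1, 116 and 67.8 TPM in ATG12-/- EVs and 19.4, 25.1 and 30 TPM in ATG12-/- cells (1.42, SE 0.37, adjusted p = 0.0247), and this call was lost without ATG12-/- EV replicate 2 or ATG12-/- cell replicate 1 or 2 (adjusted p = 0.0685 to 0.0954). CYP51A1, lanosterol demethylase, had 3.25, 3.48 and 0.728 TPM in ATG12-/- EVs and 5.48, 6.45 and 7.21 TPM in ATG12-/- cells (-1.27, SE 0.40, adjusted p = 0.0555). SQLE had 19.4, 30.2 and 38.7 TPM in ATG12-/- EVs and 46.4, 48 and 47.7 TPM in ATG12-/- cells (-0.86, SE 0.29, adjusted p = 0.0696), all EV libraries being lower.

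**Figure D5:**
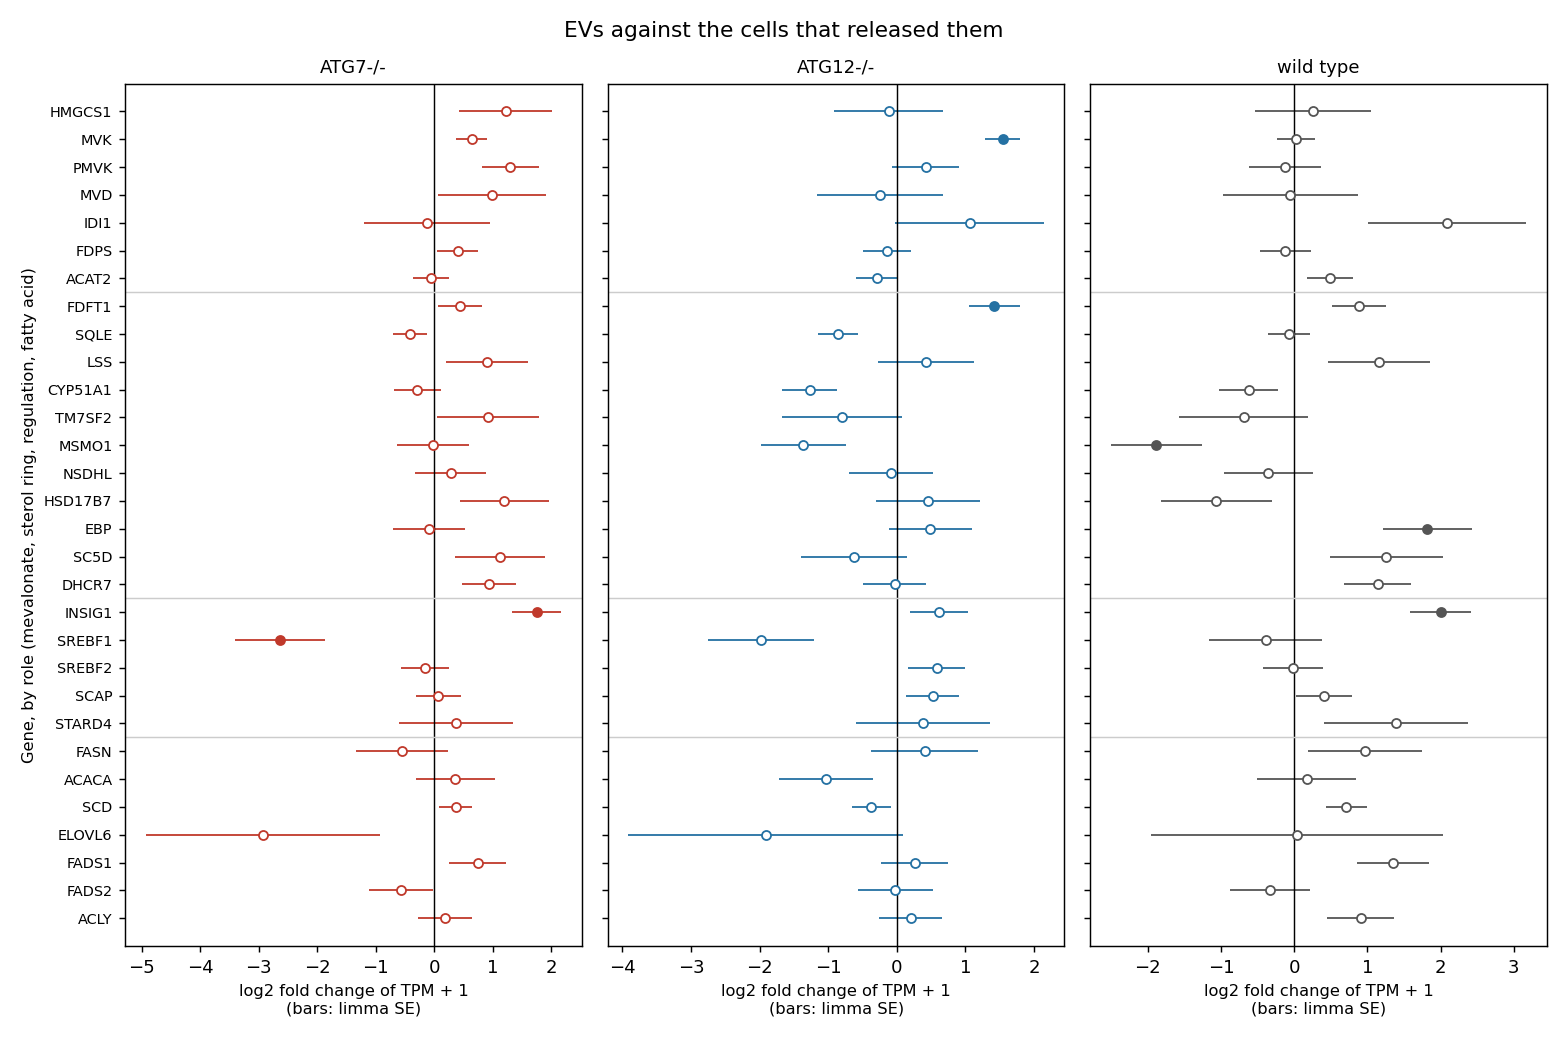
Log2 fold change of TPM + 1 of EVs against cells for the 30 genes in ATG7-/-, ATG12-/- and wild type, with bars of 1 limma standard error. Filled points passed an adjusted p of 0.05: INSIG1 and SREBF1 in ATG7-/-, MVK and FDFT1 in ATG12-/-, and INSIG1, EBP and MSMO1 in wild type.

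Whether the EV-to-cell difference itself changed with genotype was tested as an interaction, and 0 members passed in ATG7-/-, where 0.284% of all genes did, and 0 in ATG12-/-, where 0.268% did. At an unadjusted p under 0.05 there were 0 members with a greater and 1 with a smaller EV-to-cell difference in ATG7-/-, against 6.41% and 2.5% of all genes, and 1 greater and 2 smaller in ATG12-/-, against 6.57% and 3.57%. The change was above 0 for 11 members in ATG7-/-, against 58.9% of all genes, and for 9 in ATG12-/-, against 57.1%. The median of the change over the members was -0.25 in ATG7-/- (0.22 over all genes) and -0.68 in ATG12-/- (0.19 over all genes). MVK had the smallest p in ATG12-/- (change 1.52, SE 0.37, adjusted p = 0.15), followed by SCD (-1.08, SE 0.40, adjusted p = 0.377), INSIG1 (-1.40, SE 0.59, adjusted p = 0.444) and SQLE (-0.78, SE 0.41, adjusted p = 0.552). In ATG7-/- these were EBP (-1.91, SE 0.87, adjusted p = 0.546), MSMO1 (1.86, SE 0.88, adjusted p = 0.562), HSD17B7 (2.26, SE 1.07, adjusted p = 0.568) and SREBF1 (-2.25, SE 1.09, adjusted p = 0.577). A call in 1 genotype and not in another is thus not shown to be a difference between genotypes.

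The other genes of the pathway were read as lists beside the members, and none of their genes passed the test in a knockout comparison. In the list of SREBP processing and degradation, 8 of 11 genes tested were above 0 in ATG7-/- cells (median 0.62) and 8 of 11 in ATG12-/- cells (median 0.89). AUP1, which acts in the degradation of sterol enzymes, had a log2 fold change of 1.13 (SE 0.21, adjusted p = 0.0831) in ATG7-/- cells and 1.40 (SE 0.21, adjusted p = 0.0705) in ATG12-/- cells. VCP, the segregase of that route, had 2.49 (SE 0.43, adjusted p = 0.0746) in ATG7-/- cells. Of 8 further sterol synthesis genes, 6 were above 0 in ATG7-/- cells (median 0.26) and 8 in ATG12-/- cells (median 0.73), LBR, a sterol reductase of the nuclear envelope, with 1.16 (SE 0.34, adjusted p = 0.203) in ATG12-/- cells. Of 18 further fatty acid genes tested, 11 were above 0 in ATG7-/- cells (median 0.10) and 7 in ATG12-/- cells (median -0.11). Of the other mevalonate branches, 5 of 10 genes were above 0 in ATG7-/- cells and 8 of 10 in ATG12-/- cells. Of cholesterol transport, 8 of 11 were above 0 in ATG7-/- cells and 9 of 11 in ATG12-/- cells. Of the oxysterol receptors (LXR) and their targets, 1 of 4 tested was above 0 in ATG7-/- cells and 0 of 4 in ATG12-/- cells.

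In wild-type EVs against wild-type cells, VCP (log2 fold change 2.24, adjusted p = 0.0272), RABGGTA (1.90, adjusted p = 0.0459), a subunit of the enzyme that lipidates Rab proteins, and TMEM97 (1.44, adjusted p = 0.0183), a sterol-regulated membrane protein, were higher in EVs. THRSP (-1.46, adjusted p = 0.00702) and AACS (-1.51, adjusted p = 0.0377), both tied to lipid synthesis, and NR1H2 (-3.12, adjusted p = 0.0105) and ABCG1 (-2.53, adjusted p = 0.0116), an LXR and an LXR target, were lower. These lists were called higher for 3 and lower for 4 genes in all in this comparison, against the 4.03% and 20.7% of all genes given above.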

How the data were processed

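For each of the 18 samples, 3 in each of 6 groups, a strand-preserving library of total RNA was built with 22 PCR cycles and sequenced from one end over 50 bases, per the labels' protocols. The authors deposited 1 table of TPM for 203027 transcripts. Salmon 0.14 and DESeq2 are named in the submitters' processing notes, with no role. Build, annotation and strand setting: not given in the sources used here. Such TPM hold no counts, so depth is unknown and no counting interval was possible.

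Transcripts were matched by identifier to GENCODE 29 (202941 matched, 86 did not, at most 0.0384% of a library) and summed per gene with Python 3.11.15 and pandas 2.3.3. Median-of-ratios scaling used genes with at least 1 TPM in every library of a fit. The limma 3.58.1 test ran on log2(TPM + 1) for genes reaching 1 TPM in at least 3 libraries (mean-variance trend, no replicate block, R 4.3.3). Fits used the 9 EV libraries, the 9 cell libraries, or all 18 for EVs against cells and the interactions. The tests are two-sided, p-values were adjusted by Benjamini-Hochberg over all genes tested, the threshold was 0.05, and adjusted p-values in the text are limma's. Fold changes on this scale understate those of low genes. TPM are printed as deposited, and overlap was read on scaled values. The scripts were tested on simulated data, with 100 genes changed 2-fold and 100 changed 4-fold. Of those changed 2-fold, 1 (ATG7-/-) and 0 (ATG12-/-) were called in EVs, 2 and 2 in cells, and 0 and 0 in the interactions. Of those changed 4-fold, 6 and 2, 34 and 36, and 1 and 6 were called, in the same order. A member not called is therefore not shown to be unchanged.

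The members, the other gene lists and the tests were chosen with earlier results of these data known. Named in each comparison are all members that passed and up to 4 of smallest p with at least 5 TPM in the higher group; other members named were chosen after their values were seen. Same-numbered libraries showed no common deviation (correlations -0.034 to 0.047 over 45 pairs, and -0.041 to 0.035 over 90 pairs of other numbers). Such small correlations cannot show whether same-numbered libraries shared a culture or batch, which the labels do not give. Alternatives were another pseudocount, no filter, other scalings, sample weights, a replicate block, leaving out each library, and leaving out transcripts under 200 nt. Limits of 500 and 1000 nt and coding transcripts alone were chosen after seeing the data. Protein sequences were not used here. One gene of the other lists is not reported here by name.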

Additional observations from a re-analysis of the deposited data

How the results depend on the processing

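Of the 9 comparisons, the count of members called stayed at 0 under the other pseudocount, filter, scalings and weights, the limit of 200 nt, the replicate block and each library left out, in both EV knockout comparisons, both cell knockout comparisons and both interactions. Without transcripts under 1000 nt, 4 were called in ATG7-/- and 8 in ATG12-/- cells, and with 1 library also left out 0, 1, 2 or 3 in ATG7-/- cells and 1, 2, 3, 4, 5 or 6 in ATG12-/- cells. Under a limit of 500 nt they were 0 in ATG7-/- cells and 2 in ATG12-/- cells. In wild-type EVs against cells the 3 called (24.7% of all genes) became 1 without the filter (16.5%), 8 without scaling (20%), 1 with sample weights (20.8%), 8 without transcripts under 1000 nt (32%), and 1 to 2 with 1 library left out (18% to 21.7%). The members' median there was 0.66 without scaling, 0.57 without transcripts under 1000 nt and 0.23 to 0.58 with 1 library left out. In ATG7-/- EVs against cells the 2 called (11.4% of all genes) became 1 without the filter (6.97%), without scaling (9.72%) or with coding transcripts only (9.31%; median -0.01), and 0 to 2 with 1 library left out (6.38% to 8.61%). In ATG12-/- the 2 called (11.2%) became 1 to 3 with 1 library left out (5.32% to 9.46%), 3 with sample weights (10.5%) and 3 without transcripts under 1000 nt (13.4%).

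The replicate block was fitted although neither the labels nor the values showed a pairing by number. It left the counts of members called at 2 in wild-type EVs against cells, where EBP was lost (adjusted p = 0.0561). The counts stayed at 2 in each knockout and 0 in the other comparisons.

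Many fold changes changed sign in the transcript subsets. With coding transcripts only, 4 of 25 members tested both ways did so in ATG7-/- cells and 5 of 25 in ATG12-/- cells, among them SCAP in both (-0.25 in ATG7-/- and -0.26 in ATG12-/- cells), and 6 to 9 members did so in each other comparison. Without transcripts under 1000 nt, 8 of 26 did so in ATG7-/- cells, among them INSIG1 (-0.03), and 7 of 26 in ATG12-/- cells, and 3 to 12 in each other comparison. Of the members named by the rule on p-values, those that changed sign with coding transcripts only were EBP in ATG7-/- against wild-type EVs (1.31), MVK (-2.70) and SREBF1 (0.15) in ATG12-/- against wild-type EVs, FADS1 in wild-type EVs against cells (-0.18), MVK in EVs against cells of ATG7-/- (-1.30) and of ATG12-/- (-1.54), and the interactions of SREBF1 in ATG7-/- (0.33) and MVK in ATG12-/- (-2.86). Without transcripts under 1000 nt these were FADS1 in ATG12-/- against wild-type cells (-0.14) and in wild-type EVs against cells (-0.90), and the interaction of HSD17B7 in ATG7-/- (-0.13). The cause was not tested. TPM keep no depth, so how far low values are limited by reads is unknown.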
